A study of Mus musculus with 4 samples.

Results

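This account covers 10 genes that mark the macrophages of the splenic red pulp and marginal zone: Marco, Cd163, Vcam1, Spic, C1qa, C1qb, Adgre1, Siglec1, Hmox1 and Slc40a1. They were chosen by name from 28307 genes and unnamed transcripts on the array, and all of their 15 probes were read, of 43379 gene spots. RNA came from B220 B cells (B220 is a form of the surface protein CD45 found on the B lineage), freshly taken from the bone marrow and the spleen of naive mice. The groups were marrow WT, marrow KO, spleen WT and spleen KO, where KO stands for the strain labelled Mef2c KO and WT for C57BL/6. Each group was 1 Agilent 1-colour array, so a difference between 2 arrays has no replicate check, and the 4 arrays limit the precision. The age, sex and number of the animals are not given in the sources used for these results. Nor are the part of Mef2c that was deleted, the cells in which it was deleted and the way B220 cells were isolated.

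Macrophages of the red pulp take up worn-out red blood cells, break down their haem and return the iron to the blood. Those of the marginal zone catch bacteria, viruses and other particles from the blood through scavenger and sialic acid receptors. The 10 genes cover these tasks: Marco and Siglec1 encode surface receptors of marginal zone macrophages, Cd163, Hmox1 and Slc40a1 proteins of haem and iron handling, and C1qa and C1qb chains of the complement protein C1q. Adgre1, whose older symbol in the files is Emr1, encodes the macrophage antigen F4/80. Spic encodes Spi-C, an ETS transcription factor that red pulp macrophages need and that some B cells also express. Vcam1 encodes an adhesion receptor of red pulp macrophages and of stromal and endothelial cells. The RNA is from bulk samples labelled B cells. Changes in macrophage number, in an RNA per macrophage and in its expression by B cells or other cells cannot be told apart below.

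The array probes of C1qa and C1qb are shown because these related genes stood apart from most of the other 8 genes, and because a shared probe sequence would blur them. They lie on build mm9 at chr4:136452409-136452468 and chr4:136436578-136436637, both on the minus strand. Capitals mark their longest shared run, of 5 bases, and without gaps at most 18 of 58 aligned bases match.
C1qa: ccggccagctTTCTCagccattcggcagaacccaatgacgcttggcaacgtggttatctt
C1qb: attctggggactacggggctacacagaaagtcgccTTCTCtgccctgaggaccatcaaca
The 2 probes below read an upstream part of their transcripts, and each is set further on beside a probe nearer the 3′ end of the same transcript. The Vcam1 probe lies at chr3:115828953-115829012 on the minus strand and the Adgre1 probe at chr17:57550221-57550280 on the plus strand of mm9.
Vcam1: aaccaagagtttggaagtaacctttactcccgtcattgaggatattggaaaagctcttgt
Adgre1: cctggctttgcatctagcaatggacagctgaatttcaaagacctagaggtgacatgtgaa

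Promoter sequence of the 250 bases before the start was found for 4 of the 10 genes, Marco, C1qb, Cd163 and Spic, in the RefSeq table of build GRCm38.p6. Both strands were searched for GAGGAA, the box bound by the ETS factors PU.1 and Spi-C. The table's 32851 promoters hold it in 23.3% of cases. The promoters of Marco and C1qb each hold 1 match, in capitals, at 146 and 30 bases before the start, and those of Cd163 and Spic hold 0. They lie at chr1:120505025-120505274 for Marco and chr4:136886201-136886450 for C1qb, both on the minus strand, and are printed in the direction of the gene.
Marco: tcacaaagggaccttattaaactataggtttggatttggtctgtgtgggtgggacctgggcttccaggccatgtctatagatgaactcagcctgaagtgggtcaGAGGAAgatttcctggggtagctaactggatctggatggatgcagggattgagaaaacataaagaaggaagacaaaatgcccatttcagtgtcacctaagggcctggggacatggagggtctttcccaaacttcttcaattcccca
C1qb: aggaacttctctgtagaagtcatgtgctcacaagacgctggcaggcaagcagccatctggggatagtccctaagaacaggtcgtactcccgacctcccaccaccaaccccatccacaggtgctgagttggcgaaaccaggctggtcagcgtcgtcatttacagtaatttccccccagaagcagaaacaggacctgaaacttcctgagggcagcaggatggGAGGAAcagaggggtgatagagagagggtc
The core motif of Mef2 factors, searched likewise, was in 0 of these 4 promoters and in 3.20% of all promoters. The antioxidant response element TGACNNNGC, searched on both strands, was in that of C1qb alone among the 4, on the opposite strand at 103 bases before the start, and in 10.2% of all. A match is only a run of letters, and the matches in the C1qb promoter do not overlap.

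The spleen KO array stood apart from the other 3. Its 75th percentile of signal, the scale used here, was 524 against 966 to 1012 on the others, and 59.3% of its gene spots were well above background against 69.1% to 71.98%. On it 0 of 4 Y-linked genes were well above background, against 4 of 4 on each other array. For the spike-in probes of the array the median signal was 3015 on marrow WT, 3728 on marrow KO, 667 on spleen WT and 2128 on spleen KO. By its brightest probe Mef2c, the targeted gene, had signals of 4218 on marrow WT, 5511 on marrow KO, 8534 on spleen WT and 11838 on spleen KO. Its second probe had 21.2, 28.5, 364 and 128 in the same order. KO minus WT was 0.32 and 0.36 in the marrow and 1.36 and -0.61 in the spleen, so the probes disagreed in direction there, and with spike-in scaling both are below 0 in the spleen. Either probe may lie outside the deleted part, so KO below means only the label. All 10 listed B cell marker genes, such as Cd79a and Cd22, were well above background on all 4 arrays, and so were all 10 macrophage genes by their brightest probe.

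Signals below are Feature Extraction's processed signal on a linear scale, in arbitrary units. Levels are log2 signals minus the log2 of the array's 75th percentile, and a difference is that of 2 such levels. Both marrow arrays were on 1 slide and both spleen arrays on another, so tissue and slide cannot be told apart, and KO held the same position on both slides, which leaves genotype confounded with position. Feature Extraction's own error of the signal was at most 16.5% for the brightest probes, and the log2 signals of repeated spots varied with a median SD between 0.101 and 0.141. Both cover 1 array only, not the spread between mice. Of all genes with several measured probes, the share whose probes lay over 2-fold apart was 12.5% for KO minus WT in the marrow and 49.2% in the spleen, and 35.0% and 22.8% for spleen minus marrow in WT and in KO.

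**Figure D1:**
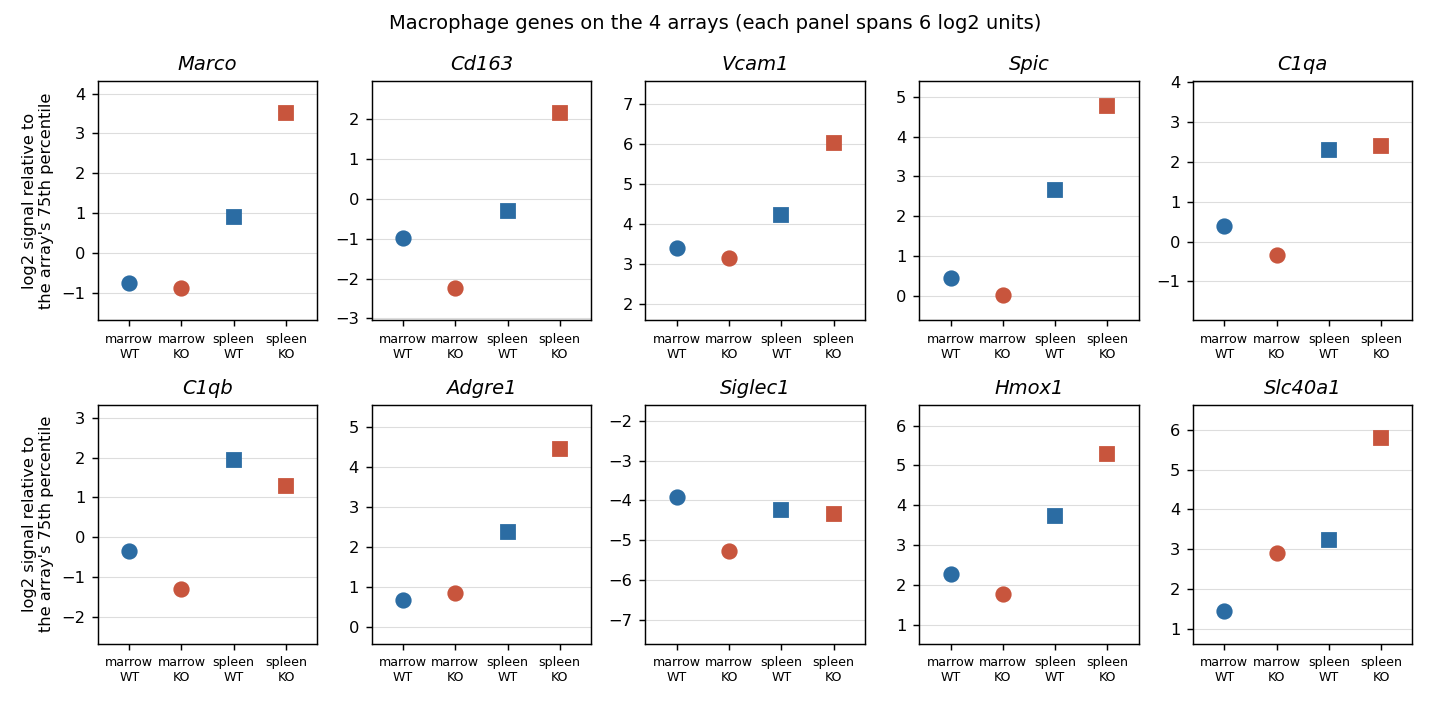
Level of each of the 10 genes on the 4 arrays, as log2 signal of its brightest probe relative to the array's 75th percentile, with circles for marrow, squares for spleen, blue for WT and red for KO. Each point is 1 array without replicates, every panel spans 6 log2 units around its own middle, and spleen KO is highest for 8 genes, C1qb and Siglec1 being the other two. For C1qa this order turns with quantile normalization, cyclic loess or no scaling, and with spike-in scaling spleen KO exceeds spleen WT for Marco only.

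In the spleen, the array labelled KO had higher levels of 7 of the 10 macrophage genes and about equal or lower levels of C1qa, C1qb and Siglec1. At least 2-fold higher were Marco, Cd163, Vcam1, Spic, Adgre1, Hmox1 and Slc40a1, and 0 genes were 2-fold lower. Of all 19872 genes measured in this comparison, 19.6% stood 2-fold or more above WT in KO and 14.5% as far below. The median of the 10 genes was 1.94, beside 0.26 for all genes and 0.75 for the genes above the upper quartile of brightness. The 7 positive differences depended on the scale. Quantile normalization and cyclic loess left Hmox1 under 2-fold at 0.80 and 0.92. Scaled by the spike-ins, which lowers each difference of this comparison by 2.57, Marco was at 0.04 and the other 6 were below 0, as 18135 of 19872 genes were at least 2-fold down. Relative to the median of all genes, which no common scale factor changes, the 7 genes were higher by 1.29 to 2.34.

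Marco, a scavenger receptor that binds bacteria, had signals of 571 on marrow WT, 550 on marrow KO, 1821 on spleen WT and 5957 on spleen KO. Both spleen arrays were above both marrow arrays, whose signals were close to each other. In the spleen KO exceeded WT by 2.60 (6.07-fold), and in the marrow the difference was -0.12. Siglec1, a sialic acid receptor also known as CD169, had signals of 63.9, 26.0, 51.1 and 25.8 on marrow WT, marrow KO, spleen WT and spleen KO. Both KO arrays gave a lower signal than both WT arrays before scaling. On the scaled levels the spleen arrays differed by -0.09, a value that was above 0 with 4 of the 6 alternative scalings (0.30 with quantile normalization), and marrow KO was lower than marrow WT by a difference of -1.36 (2.57-fold). A second Siglec1 probe, at position 1417 of the transcript instead of 6074, had signals of 30.4, 23.3, 29.2 and 18.5 in the same order. Its differences were -0.45 in the marrow and 0.24 in the spleen, so the 2-fold difference in the marrow was seen with 1 of 2 probes. Of these 2 marginal zone receptors, 1 was therefore at least 2-fold higher on spleen KO.

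Cd163 encodes the receptor that takes up haemoglobin bound to haptoglobin. Its signals were 490 on marrow WT, 214 on marrow KO, 793 on spleen WT and 2333 on spleen KO. Marrow KO was the lowest and spleen KO the highest of the 4. The difference was -1.26 (2.39-fold lower in KO) in the marrow and 2.45 (5.46-fold higher in KO) in the spleen. Hmox1 encodes haem oxygenase 1, which opens the haem ring and frees its iron, and which many cells induce under oxidative stress. It had signals of 4640 on marrow WT, 3451 on marrow KO, 12851 on spleen WT and 20314 on spleen KO. The tissues did not overlap, and KO minus WT was -0.49 in the marrow and 1.55 (2.93-fold) in the spleen. Slc40a1 encodes ferroportin, the exporter of iron from cells. Its signals were 2649 on marrow WT, 7513 on marrow KO, 9196 on spleen WT and 29144 on spleen KO. KO exceeded WT within both tissues, by 1.44 (2.71-fold) in the marrow and 2.56 (5.88-fold) in the spleen. Of the 10 genes, Slc40a1 alone passed 2-fold upward in both tissues, and the share of all genes that did so was not counted. With spike-in scaling Slc40a1 differed by 1.20 in the marrow and -0.010 in the spleen.

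Spic, the red pulp factor, was read by 2 probes close to each other, at positions 1054 and 1167. The brighter, at 1167, had signals of 1325 on marrow WT, 1031 on marrow KO, 6152 on spleen WT and 14210 on spleen KO, and the other 710, 537, 4107 and 7578. Both probes put the arrays in the same order, with spleen KO highest and marrow KO lowest. The difference of KO and WT was -0.43 and -0.47 in the marrow and 2.10 and 1.78 in the spleen. Vcam1 was read by 3 probes. The brightest, at position 3060, had signals of 10144 on marrow WT, 8996 on marrow KO, 18135 on spleen WT and 33984 on spleen KO, and that printed above, at position 842, had 250, 142, 550 and 893. Their differences were -0.24 and -0.88 in the marrow and 1.80 and 1.59 in the spleen, again with KO on either side of WT in the 2 tissues. The third Vcam1 probe comes from a cDNA clone and was well above background on spleen WT only, with a signal of 21.0 there and 4.39 on spleen KO, so it gives no fold.

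Adgre1 had signals of 1535 on marrow WT, 1826 on marrow KO, 5080 on spleen WT and 11605 on spleen KO by its brightest probe, at position 3135. The marrow arrays were close, at a difference of 0.18, and spleen KO exceeded spleen WT by 2.08 (4.24-fold). The upstream Adgre1 probe printed above, at position 934, gave much lower signals of 26.2, 11.8, 60.6 and 35.9 in the same order of arrays and was not well above background on marrow KO. There the spleen difference was 0.14, and in the marrow WT was at least 1.66-fold higher than KO. The 2 probes of Adgre1 therefore put spleen KO 2-fold above WT in 1 case and level with it in the other. Of the 4 genes with a second probe measured on both spleen arrays, Vcam1 and Spic were 2-fold higher by both probes, Adgre1 by 1 of 2 and Siglec1 by 0 of 2.

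C1qa and C1qb encode chains that assemble with that of C1qc into C1q, the recognition part of the classical complement pathway, which many tissue macrophages secrete. C1qa had signals of 1273 on marrow WT, 805 on marrow KO, 4799 on spleen WT and 2751 on spleen KO. C1qb had 754, 414, 3737 and 1278. For both, each spleen array was above each marrow array, and KO gave a lower signal than WT in both tissues before scaling. On the scaled levels C1qa differed by -0.73 in the marrow and 0.09 in the spleen, the latter turning to -0.37 with quantile normalization, -0.20 with cyclic loess, -0.80 without scaling and -2.48 with the spike-ins. C1qb differed by -0.93 in the marrow and -0.66 in the spleen, and was below 0 in the spleen under all alternative scalings. Of the same complex C1qc differed by -0.45 in the marrow and 1.06 in the spleen. On this scale the 3 chains therefore did not share a direction in the spleen. Spike-in scaling takes 2.57 from each spleen difference of KO and WT, which puts all 3 chains below 0 there.

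**Figure D2:**
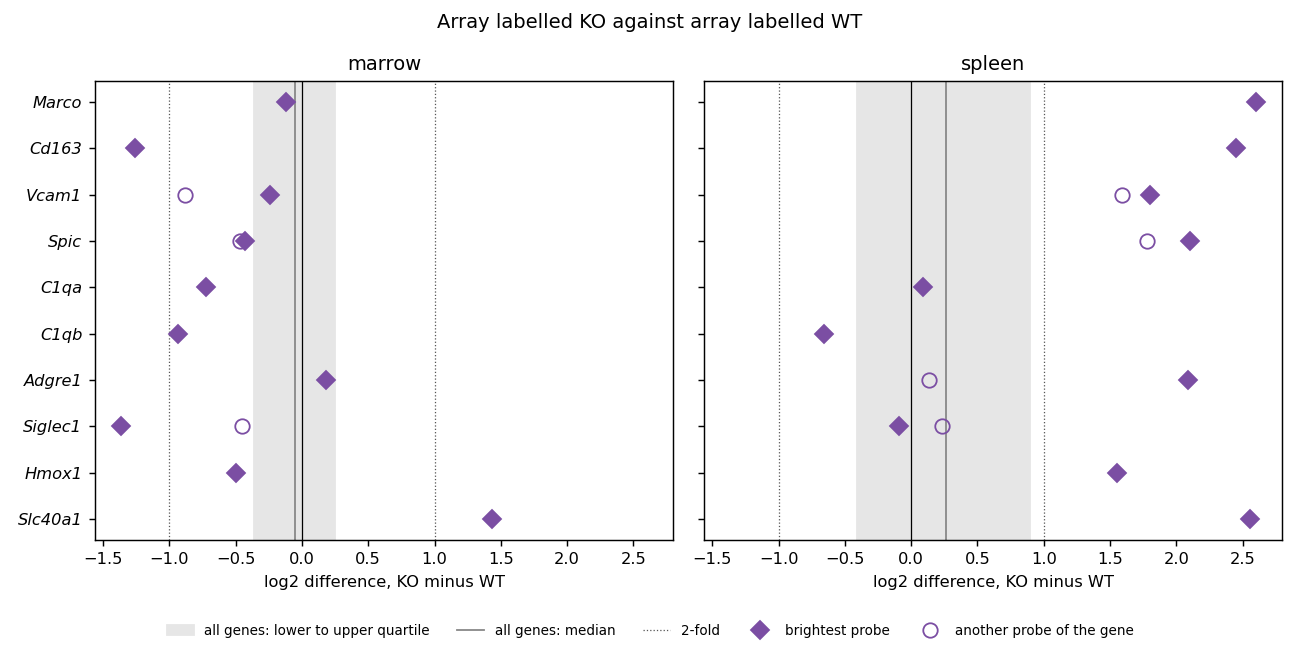
Log2 difference of the array labelled KO and the array labelled WT in marrow (left) and spleen (right) for each gene, by its brightest probe (diamonds) and other probes measured on both arrays (open circles), over the span from the lower to the upper quartile of all genes (grey band), their median (grey line) and the 2-fold marks (dotted). In spleen 7 diamonds lie beyond 2-fold, from 1.55 to 2.60, of which 6 fall below 0 with spike-in scaling, and in marrow Slc40a1 lies at 1.44 against -1.26 for Cd163 and -1.36 for Siglec1.

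In the marrow, most of the macrophage genes were near or below the WT level on the array labelled KO. Of the 10, 8 had a negative difference, with 2 at least 2-fold lower, Cd163 and Siglec1, and 1 higher, Slc40a1. Of all 21268 genes measured, 4.89% were at least 2-fold lower and 8.36% higher. The median of the 10 genes was -0.46 beside -0.05 for all genes. Adgre1 was the other gene with a positive difference, which was -0.52 with the median over its probes and -0.06 with spike-in scaling. The 2-fold difference of Siglec1 was not kept with normexp (-0.52) or the median over its probes (-0.91).

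Both tissues together allow a test, limma's fit with terms for tissue and genotype, which takes marrow and spleen as repeats of 1 genotype effect and has 1 residual degree of freedom. None of the 10 genes passed the adjusted threshold of 0.05 for genotype in this limma fit, and 1, Slc40a1, was under 0.05 before adjustment. Of 22089 genes tested, 0.00905% were called higher and 0% lower, that is 2 genes (Jhy and Klk1b24) and 0 genes, while 2332 were under 0.05 before adjustment. Slc40a1, the iron exporter, had a fitted KO minus WT of 1.997 (SE 0.553, adjusted p 0.312 in limma). It passed with normexp background correction. The other fitted values ran from -0.79 for C1qb to 1.24 for Marco, and with spike-in scaling Slc40a1 alone of the 10 was above 0, at 0.59.

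Between tissues, the spleen arrays had higher levels than the marrow arrays for nearly all of the genes, in WT as in KO. On the WT arrays 7 of 10 genes were at least 2-fold higher in spleen and 0 lower, as against 15.5% (higher) and 15.6% (lower) of all 21474 measured genes. On the KO arrays 9 of 10 were higher and 0 lower, where 15.5% of 20365 genes were higher and 14% lower. The median difference of the 10 genes was 1.69 in WT and 3.21 in KO. All-gene medians beside these were -0.07 and 0.19. Short of 2-fold were Vcam1 at 0.83, Cd163 at 0.69 and Siglec1 at -0.33 in WT, and Siglec1 at 0.94 in KO. The last was past 2-fold with quantile normalization (1.19), scaling by the median (1.17) and cyclic loess, so that all 10 genes were, and -0.012 without scaling. Siglec1 in WT was above 0 only with spike-in scaling, which adds 2.19 to each difference of the WT arrays and puts all 10 genes past 2-fold. With that scaling 17345 of all 21474 genes were at least 2-fold higher in WT spleen and 350 lower.

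Spic had the largest spleen minus marrow difference in KO, 4.74 (26.6-fold), beside 2.21 (4.61-fold) in WT. Cd163 and Marco were next in KO at 4.40 (21.0-fold) and 4.39 (20.9-fold), with 0.69 and 1.66 in WT. Adgre1 stood at 3.62 in KO and 1.72 in WT, Hmox1 at 3.51 and 1.46, Slc40a1 at 2.91 and 1.79, and Vcam1 at 2.87 and 0.83. On this scale the C1q chains had the most similar values in KO and WT of the 10 genes, a difference that was not tested. C1qb was at 2.58 in KO and 2.30 in WT and C1qa at 2.72 and 1.91. The ranking depended on the scale. Without scaling C1qa was at 1.77 in KO and 1.91 in WT and C1qb at 1.63 and 2.31, beside 1.96 and 1.80 for Slc40a1. With spike-in scaling C1qa was at 2.58 in KO and 4.09 in WT and C1qb at 2.43 and 4.49, beside 4.59 and 4.39 for Spic. In WT the highest tissue differences were those of C1qb and Spic, and Spic was above C1qb with cyclic loess (2.40 and 2.37) and with the median over probes (2.36 and 2.30).

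In the same limma fit 6 of the 10 genes rose from marrow to spleen at an adjusted p under 0.05, and 0 fell. Of all 22089 genes, 2.39% were called higher in spleen and 4.69% lower. Spic rose by 3.47 (SE 0.677, adjusted p 0.0190 in limma), C1qb by 2.44 (SE 0.520, adjusted p 0.0269) and Adgre1 by 2.67 (SE 0.613, adjusted p 0.0359). Marco rose by 3.03, C1qa by 2.31 and Slc40a1 by 2.35, with adjusted p-values of 0.0366, 0.0375 and 0.0398 in limma. Hmox1 at 2.48 (adjusted p 0.0516 in limma), Cd163 at 2.54, Vcam1 at 1.85 and Siglec1 at 0.30 did not pass. With cyclic loess, with no scaling or with spike-in scaling 0 of the 10 passed in limma. All 6 genes were higher in spleen on both pairs of arrays, and so were Hmox1, Cd163 and Vcam1, which did not pass. The fit itself rests on how alike these pairs are, so this adds no separate support to the calls.

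**Figure D3:**
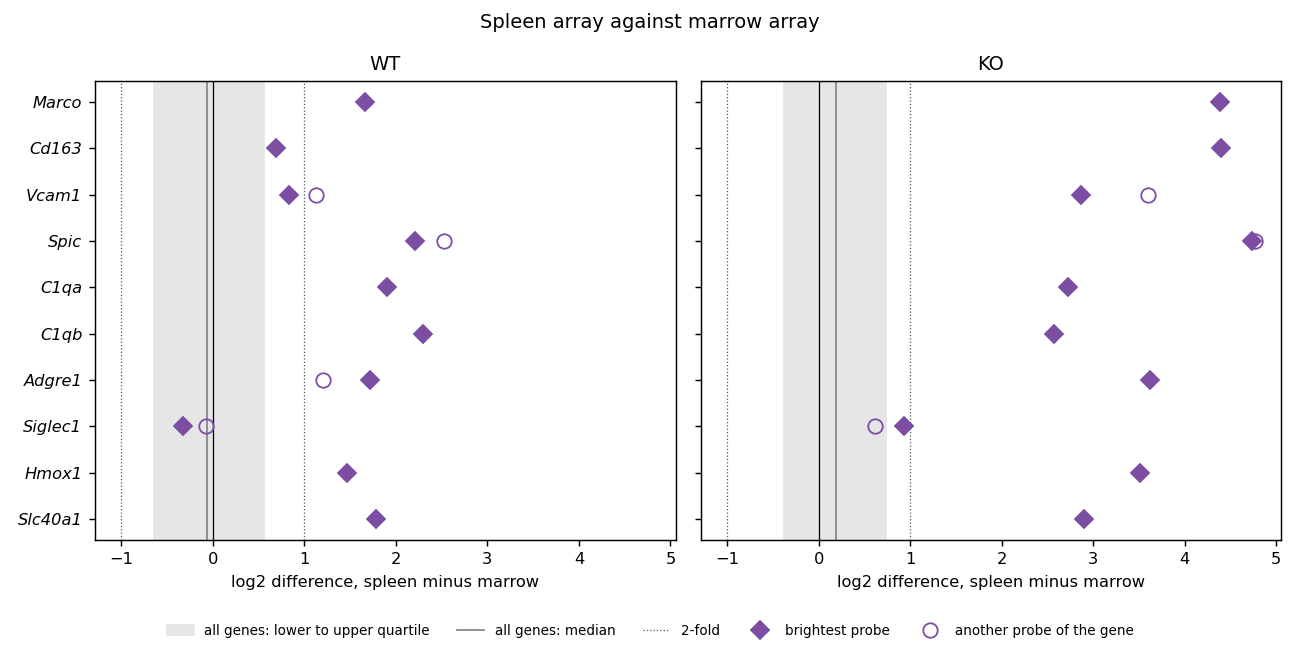
Log2 difference of the spleen array and the marrow array in WT (left) and KO (right) for each gene, by its brightest probe (diamonds) and other probes measured on both arrays (open circles), over the span from the lower to the upper quartile of all genes (grey band), their median (grey line) and the 2-fold marks (dotted). All 10 diamonds lie above 0 in KO, up to 4.74 for Spic (without scaling Siglec1 is at -0.012), and in WT only Siglec1 lies below 0, at -0.33, a sign that turns with spike-in scaling.

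Among themselves the 10 genes fell into unlike profiles over the 4 arrays. Likeness was measured as the Euclidean distance of the 4 log2 levels after their mean was taken off, among genes well above background on all arrays, and is a description of 4 points. Among the 10, Marco lay nearest to Adgre1 (0.56) and Spic (0.61), and C1qa nearest to C1qb (0.56). Siglec1 lay at 2.06 to 3.59 from the others and was the farthest from all of them except C1qa and C1qb, which were farther from Slc40a1 (2.32 and 2.82). Genes outside the 10 lay nearer still in each case. Those nearest to Marco were Col14a1 (0.33) and P2ry10 (0.39), to Spic Hepacam2 (0.34) and Kcnj16 (0.52), to Adgre1 Kynu (0.22) and Abca17 (0.24), and to Hmox1 Ctss (0.16) and Paqr9 (0.18). Slc40a1 had Ube2e2 (0.39) and Cd59a (0.50) as nearest, Cd163 4930535E02Rik (0.37) and Cmbl (0.40), and Siglec1 Olfr137 (0.07) and Prl3b1 (0.09). For C1qa and C1qb the nearest named genes were Pou6f1 (0.13) and Doc2g (0.19), and both neighbours of Vcam1 were transcripts without a gene symbol.

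Other genes of tissue macrophages stood in much the same order of arrays. The summed level of 15 such genes, in units of the array's 75th percentile, was 8.48 on marrow WT, 9.94 on marrow KO, 32.6 on spleen WT and 92.0 on spleen KO. That of the 10 genes was 24.3, 24.5, 64.4 and 232. In the spleen KO stood 2-fold or more above WT for 9 of the 15 and below it for 1, the median being 1.12, and in the marrow 1 of 13 was higher and 1 lower (median 0.12). In the spleen the Fc receptor gene Fcgr1 differed by 2.37 and the mannose receptor gene Mrc1 by 2.15, while Csf1r, the receptor for the macrophage growth factor, which is also in the monocyte list, differed by -1.05. In the marrow Treml4 was at 2.43 and Cd5l, a secreted macrophage protein, at -1.79. From marrow to spleen 7 of the 15 rose and 0 fell in limma. With spike-in scaling these orders turned between the spleen arrays: the 10 genes summed to 93.9 spike-in medians on spleen WT and 57.2 on spleen KO, and the 15 genes to 47.6 and 22.6.

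Of the genes of iron and haem handling outside the 10, 22 were measured in the spleen. On spleen KO 9 passed 2-fold upward and 0 downward (median 0.96), which became 5 and 1 with quantile normalization or the median over probes, 4 and 3 with cyclic loess, 1 and 5 without scaling and 0 and 20 with the spike-ins. Among the 9 were the haem exporter gene Flvcr1 at 2.61, the biliverdin reductase gene Blvra at 1.60 and Fech, the last enzyme of haem synthesis, at 1.56. In the marrow 5 of 23 were higher and 1 lower (median 0.10), led by haptoglobin, Hp, at 3.37, the metal transporter gene Slc11a1 at 1.76 and ceruloplasmin, Cp, at 1.64. Complement genes besides C1qa and C1qb were at least 2-fold higher in 6 of 15 cases and lower in 0 in the marrow, where C3, the central component, differed by 3.25 and C1ra by 1.81. In the spleen 6 of 14 were higher and 1 lower (1 and 4 without scaling), with Cfb at 1.91 and Cd93 at -1.58. Both spleen medians kept their sign under the alternative scalings other than the spike-ins, which put the iron list at -1.61 and the complement list, 0.95 here, at -1.62. Transcription factors of macrophages went both ways in the spleen, with 4 of 12 at least 2-fold higher and 4 lower. That became 4 and 5 with cyclic loess, 3 and 7 without scaling and 0 and 9 with the spike-ins. Cebpb differed by 3.04 and Tfec by 2.73, whereas Bach1, a repressor of Hmox1, differed by -3.26. In the marrow Cebpb was the only one of the 12 past 2-fold, at 2.35.

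Markers of other cells that a B220 isolate could hold moved with the same comparisons, and their part in the values of the 10 genes was not tested. The summed level of 14 neutrophil genes was 441 on marrow WT, 1523 on marrow KO, 11.5 on spleen WT and 145 on spleen KO. In KO, 13 of the 14 were at least 2-fold higher in marrow and 7 of 13 in the spleen, where 1 was lower. The largest KO minus WT difference of this list in the spleen was that of the antimicrobial peptide gene Camp, at 5.31. The 10 monocyte genes summed to 110, 434, 37.1 and 75.4 in the same order of arrays, with 6 at least 2-fold higher in marrow KO, 4 higher and 1 lower in spleen KO (0 and 3 there without scaling). Unlike the macrophage genes, both lists had higher sums on each marrow array than on either spleen array. With spike-in scaling the exception was the monocyte sum, 35.3 on marrow WT and 54.1 on spleen WT. Lyz2 had the highest level of the monocyte list on all 4 arrays and weighs most in its sums. Gene by gene, 4 of the 10 monocyte genes were at least 2-fold higher in spleen and 4 lower in WT. In KO 1 was higher and 5 lower. The erythroid genes, 9 on the array, summed to 8.37, 5.80, 7.80 and 28.1, so spleen KO was the highest here too, though not with spike-in scaling, where it was 6.91 beside 11.4 on spleen WT. In the spleen 5 of 7 measured erythroid genes were at least 2-fold higher in KO, such as Hba-a1, an alpha globin, at 1.97, and in the marrow 1 of 8 was higher and 2 lower.

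Genes of stromal and endothelial cells, which also express Vcam1, summed to 10.8 on marrow WT, 30.4 on marrow KO, 3.01 on spleen WT and 2.21 on spleen KO. Each marrow array had a higher sum than either spleen array, except that with spike-in scaling the sum was 3.45 on marrow WT and 4.40 on spleen WT. In the marrow 8 of 11 were at least 2-fold higher in KO and 0 lower, with Pdgfra at 2.65, and in the spleen 2 of 10 were higher and 1 lower. Dendritic cell genes summed to 4.99, 2.87, 10.7 and 10.9 over marrow WT, marrow KO, spleen WT and spleen KO, and 2 of 8 were at least 2-fold lower in KO in each tissue, with 1 higher in the spleen (0 lower there with normexp and 5 without scaling). The B cell genes summed to 550, 485, 725 and 1198, but with spike-in scaling to 1057 on spleen WT and 295 on spleen KO. Of these 10, 3 were lower in marrow KO, and in spleen KO 3 were higher and 5 lower, with Cd79a at -2.47 and Cd22 at -2.25. The spleen counts became 0 higher and 4 lower with quantile normalization and 0 and 6 with cyclic loess.

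**Figure D4:**
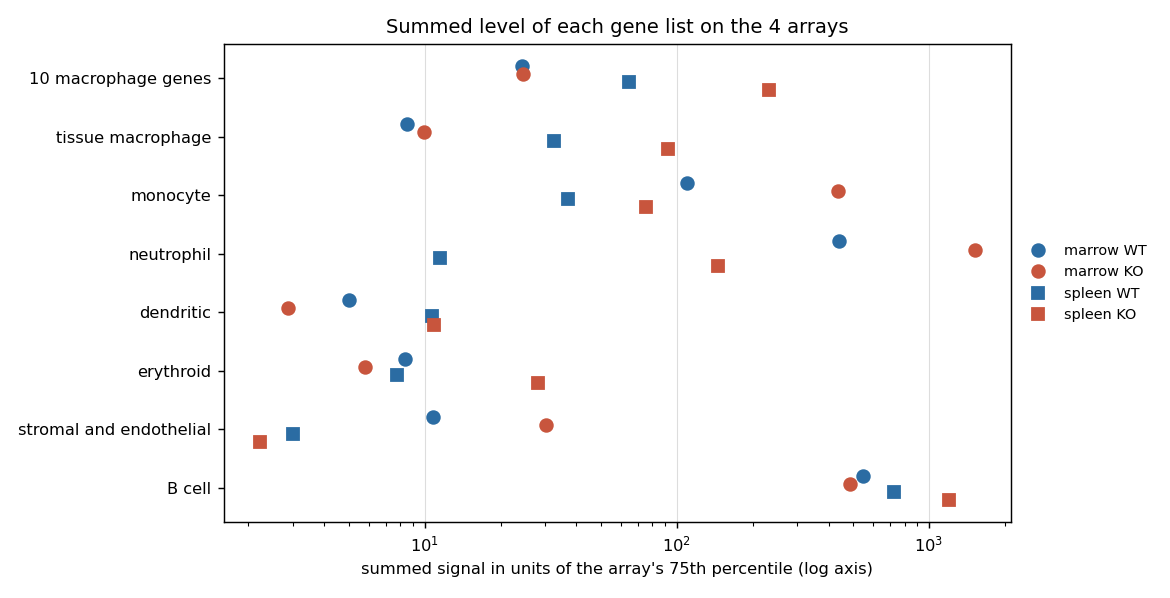
Summed signal of each gene list on the 4 arrays in units of the array's 75th percentile, on a log axis, with circles for marrow, squares for spleen, blue for WT and red for KO, 1 array each. The 10 macrophage genes and the tissue macrophage list are highest on spleen KO, at 232 and 92.0 (with spike-in scaling on spleen WT), while the neutrophil, monocyte and stromal lists are highest on marrow KO under both.

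**Figure D5:**
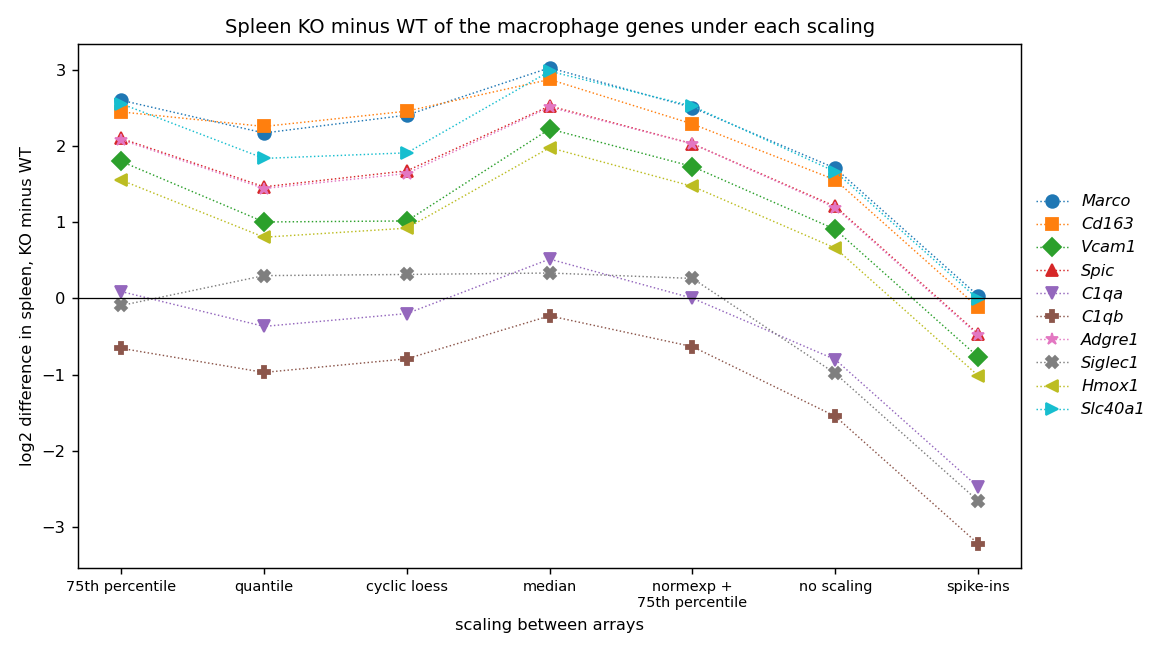
Log2 difference of spleen KO and spleen WT for each gene (y axis) under 7 ways of scaling the arrays (x axis), 1 value each without replicates and with dotted lines only to guide the eye. Marco is at 2.60 under the 75th percentile, 1.71 without scaling and 0.04 with the spike-ins, where the other 9 genes lie below 0.

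Of the 7 scalings, 4 shift all genes by 1 constant and so cannot change the order of the genes. Under the other 3, quantile normalization, cyclic loess and normexp, C1qb, C1qa and Siglec1 also had the 3 lowest spleen differences of the 10 genes, and Marco, Cd163 and Slc40a1 the 3 highest. Without any scaling, 5 of the 10 genes were at least 2-fold higher on spleen KO, Vcam1 and Hmox1 being at 0.91 and 0.66. C1qb was at least 2-fold lower at -1.55. Of all 19872 genes measured there, 830 were as far higher and 7531 as far lower without scaling.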

How the data were processed

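The deposited scanner files give each spot's processed intensity, background-corrected and linear, from Agilent Feature Extraction 10.5.1.1 as the authors ran it. The array design used mm9 coordinates, and no normalization between arrays is recorded, per the file headers. Gene spots without an outlier mark were taken to log2, centred on each array's 75th percentile and averaged per probe. A gene was its brightest probe over the 4 arrays, named through the reference table (25097 of 41174 probes by accession), and all probes of the 10 genes were also read. A gene counted as measured when well above background, by Feature Extraction's mark, on at least 1 array of a pair; with 1 such array the difference is a bound, computed from the dim probe's signal or the lowest signal well above background, whichever is higher. Differences of at least 2-fold were counted. Limma 3.58.1 (R 4.3.3) was fitted to all genes so marked on 1 or more arrays, with terms for tissue and genotype, Benjamini-Hochberg adjustment and a threshold of 0.05. Scripts were tested on simulated data. The genes and the 12 other lists were chosen with earlier results of these data known. Of each list the 3 genes with the largest difference per comparison of KO with WT could be named, of each macrophage gene the 2 nearest in profile; C1qc, Csf1r, Jhy and Klk1b24 were named after their values were seen, and some genes under the rule are not reported here. Whether arrays are separate animals is not given. The p-values of limma rest on how far KO minus WT differed between the tissues, not on a spread between mice. Limma moderates that variance with a value from all tested genes, at 7.45 prior degrees of freedom. Alternatives were quantile, cyclic loess and median scaling, normexp, the median over a gene's probes, a 1.5-fold threshold, other background filters and limma without the tissue term. No scaling and spike-in scaling were added after seeing the data.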

Additional observations from a re-analysis of the deposited data

Results flagged for a closer look

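For 6 of the 10 genes KO minus WT had opposite signs in marrow and spleen, by 1 array for each group, and this difference between the tissues was not tested. The share of all genes with opposite signs was not counted, so the 6 are not read as a trait of these genes. The medians of all genes, -0.05 in the marrow and 0.26 in the spleen, also had opposite signs. The spleen difference exceeded that of the marrow by 3.71 for Cd163, the haemoglobin scavenger receptor gene, by 2.72 for Marco and by 2.53 for Spic. For Hmox1 it was 2.05 and for Vcam1 2.04. For C1qa it was 0.82, with a spleen value of 0.09 that turned negative with quantile normalization, cyclic loess or no scaling. With spike-in scaling the spleen value was below 0 for all of these but Marco.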

How the results depend on the processing

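Of the single-gene values, 93 of 100 kept both sign and side of the threshold in the marrow, 76 of 100 in the spleen, 92 of 100 between WT tissues and 95 of 100 between KO tissues, and 83 of 90 and 44 of 70 kept theirs in limma for genotype and tissue. The count of macrophage genes 2-fold lower in marrow KO, 2, was 1 with normexp or the median over probes and 4 at a 1.5-fold threshold. In spleen KO, 0 lower became 1 at 1.5-fold or without scaling. Spike-in scaling gave 0 higher and 4 lower there and reversed Cd163 (-0.12), Vcam1 (-0.77), Spic (-0.47), Adgre1 (-0.48), Hmox1 (-1.01) and Slc40a1 (-0.010); by construction it takes 2.57 from each gene. In limma, normexp called 1 gene for genotype, and 0 genes passed for tissue with cyclic loess, no scaling or spike-in scaling; the cause was not tested. Over all genes, limma's genotype calls of 2 higher and 0 lower became 433 and 199 with normexp. Among all genes 2-fold apart in the spleen, the share higher in KO, 57.4%, was 79.7% scaled by the median, 69.7% with normexp, 46.7% with the median over probes, 9.93% without scaling and 0.165% with the spike-ins. In the marrow it was 63.1%, and 75.3% with normexp, 74.9% with cyclic loess, 52.2% without a background filter, 48.9% at 1.5-fold and 41.8% with the spike-ins. The tissue term of limma compares KO with WT within each tissue and slide, and without it 0 of the 10 genes passed for genotype either. There were no replicate numbers to pair by and none to omit, since each group held 1 array. Signal over background limits the third Vcam1 probe most, with errors of up to 99.7%, and then the upstream Adgre1 probe, with up to 31.7%.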

Other observations

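Genes of the oxidative stress response, to which Hmox1 also belongs, were at least 2-fold higher in 5 of 16 cases and lower in 1 on marrow KO, with a median of 0.47. The cystine transporter gene Slc7a11 was at least 8.28-fold higher there, G6pdx, of the pentose phosphate pathway, differed by 1.90 and the sulfiredoxin gene Srxn1 by 1.72. On spleen KO 6 of 14 were higher and 2 lower, which became 2 and 3 with quantile normalization, 2 and 4 with cyclic loess and 2 and 5 without scaling. Their median, 0.58, was -0.31 without scaling and -1.99 with the spike-ins. The small Maf genes went apart, with Maff at 2.53 and Mafg at -2.60, and Bach1, their partner, was at -3.26. Hmox1 itself differed by -0.49 in the marrow and 1.55 in the spleen.

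Of 8 listed genes of adhesion and sialic acid binding, 0 were 2-fold apart in the marrow. In the spleen 2 of 8 were higher and 1 lower in KO, beside 19.6% and 14.5% of all genes. These became 1 and 1 with quantile normalization, 1 and 2 with cyclic loess, 0 and 2 without scaling and 0 and 7 with spike-ins. In the spleen Itga4, the integrin subunit that binds Vcam1, differed by -2.17 and Itgb1, the subunit it pairs with, by 1.74. The adhesion gene Icam1 was at 1.45 and Vcam1 itself at 1.80.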
